A study of Homo sapiens with 12 samples.

Results

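The transcription factors that set and hold B-cell identity were followed in B-cell lymphoma cells given chidamide, a benzamide drug that inhibits histone deacetylases. The 10 genes are BCL6, PAX5, IRF4, IRF8, PRDM1, BACH2, FOXO1, TCF3, EBF1 and SPIB. They were taken by symbol from a count table of 26364 genes, and all 10 were found and passed the filter on low counts. Polyadenylated RNA was sequenced in 4 groups of 3 libraries, JeKo-1 with chidamide, JeKo-1 with vehicle, Granta-519 with chidamide and Granta-519 with vehicle, the drug being given at 4 µM for 12 h. Both names belong to established mantle cell lymphoma lines, and the labels name no genetic change made in either. Libraries labelled JeKo-1 had 0 counts of the mantle cell lymphoma marker SOX11 and few of CCND1, as given below. Whether the libraries of a group are separate cultures is not said in the labels, and the spread behind each p-value may therefore be technical.

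TCF3, EBF1 and PAX5 are known as the factors that commit a progenitor to the B lineage and keep it there. BCL6 and BACH2 are repressors that hold a mature B cell in the germinal-centre programme. IRF4 and PRDM1, also called BLIMP1, drive the exit to the plasma cell, and BCL6 and PRDM1 are known to repress each other. FOXO1 acts downstream of PI3K signalling in early B cells and in the germinal centre, while IRF8 and the ETS factor SPIB act with partner factors on B-cell genes.

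Promoter windows were read for all 10 genes. These RefSeq windows of 300 bases on GRCh38.p14 run from 250 bases upstream to 50 downstream of a transcript start, and there were 13 because BCL6, IRF8 and PRDM1 have 2 each. The counts were made on another build, hg19, and no coordinate was carried between the builds. BCL6 is shown because it was called in opposite directions in the 2 lines, although its small fall under the JeKo-1 label depended on the scaling. Its 3 stretches, all from the first window and read on the minus strand, lie at chr3:187745479-187745718, chr3:187745447-187745476 and chr3:187745419-187745440. Capitals mark matches to TTCNNNGAA, the pattern that STAT factors and BCL6 itself are known to bind.
BCL6 upstream stretch: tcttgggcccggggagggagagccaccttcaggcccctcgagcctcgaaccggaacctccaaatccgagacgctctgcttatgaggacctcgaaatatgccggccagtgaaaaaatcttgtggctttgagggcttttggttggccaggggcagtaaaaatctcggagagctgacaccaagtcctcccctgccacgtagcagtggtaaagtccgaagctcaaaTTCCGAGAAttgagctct
BCL6 stretch across the start: tgaTTCTTAGAActggggTTCTTAGAAgtg
BCL6 stretch after the start: caagaagtTTCTAGGAAaggcc

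TTCNNNGAA reads the same on both strands and was found in 7.66% of all 35116 windows. The first BCL6 window held 4 matches, and 7 windows in all (0.0199%) held 4 or more. None of the other 12 windows of the 10 genes held the pattern. A match describes letters and says nothing of whether a protein was bound.

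FOXO1 is shown because it had the largest rise of the 10 in Granta-519. The 250 bases before its start lie at chr13:40666642-40666891 on the minus strand, with capitals on a match to the pattern of interferon-stimulated elements, GAAA and GAAA with any 2 bases between. PRDM1 and EBF1 are shown as short stretches around single matches. The PRDM1 stretch, chr6:106098889-106098918 on the plus strand of its second window, has capitals on the opposite strand of TGAGTCA, the pattern bound by AP-1 and, with flanking bases, by BACH factors. In the EBF1 stretch, chr5:159097970-159097999 on the minus strand, capitals mark GGAA and GAAA with any 2 bases between, the composite pattern at which an IRF and an ETS factor such as SPIB can bind together.
FOXO1 upstream stretch: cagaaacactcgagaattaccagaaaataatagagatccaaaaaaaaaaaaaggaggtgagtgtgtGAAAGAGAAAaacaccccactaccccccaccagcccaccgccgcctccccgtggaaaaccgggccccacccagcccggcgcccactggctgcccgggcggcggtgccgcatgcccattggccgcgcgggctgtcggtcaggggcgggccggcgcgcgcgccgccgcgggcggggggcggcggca
PRDM1 stretch: ttctacccagTGACTCAaagcactaaaagt
EBF1 stretch: taactgggctGGAAGTGAAAgtgtgtgcgc

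Searched on both strands, the interferon-stimulated pattern was present in 3.57% of all windows and, among the 10 genes, in that of FOXO1 alone. The ETS and IRF composite was present in 2.82% of all windows and, among the 10 genes, in that of EBF1 alone. TGAGTCA was present in 4.95% of windows and in the second windows of BCL6 and PRDM1. The E-box CANNTG, the pattern of TCF3, was in 8 of the 13 windows and in 68.7% of all windows. The IRF8 windows overlap each other, and the E-box of the second also lies in the first. GTAAACA, a FOXO pattern found in 3.42%, and the EBF pattern, TCCC and GGGA with any 2 bases between, found in 1.21%, had no match in these 13 windows.

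Library totals ran from 12873642 to 16592694 counts. B-cell markers were detected in 10 of 10 cases in each group, with summed levels of 9766 to 10094 CPM (counts scaled to library size with TMM factors) in JeKo-1 chidamide libraries, 8099 to 8864 CPM in JeKo-1 vehicle libraries, 11561 to 12033 CPM in Granta-519 chidamide libraries and 7899 to 7980 CPM in Granta-519 vehicle libraries. SOX11, a defining factor of mantle cell lymphoma that JeKo-1 cells are known to express, had 0 counts in both groups labelled JeKo-1, and CCND1, the cyclin that marks this lymphoma, had 44 counts with chidamide and 5 in vehicle, so these are called by their label throughout. T-cell and natural killer markers, of which 18 of 19 were in the table, summed to 59.3 to 63.0 CPM in JeKo-1 chidamide libraries and 26.0 to 30.1 CPM in JeKo-1 vehicle libraries, and to 107 to 122 CPM in Granta-519 chidamide libraries and 59.98 to 63.7 CPM in Granta-519 vehicle libraries. Within these sums LCK alone averaged 47.0 CPM in JeKo-1 chidamide libraries and 19.8 CPM in JeKo-1 vehicle libraries. In Granta-519 LCK averaged 56.1 CPM with chidamide and 22.5 CPM in vehicle. Among the same markers, CD8B was at 0 in all groups, and CD3D had 1 count in the JeKo-1 chidamide libraries and 0 in the rest. Myeloid markers, with 19 of 19 in the table, summed to 47.0 to 48.2 CPM in JeKo-1 chidamide libraries and 5.80 to 9.09 CPM in JeKo-1 vehicle libraries, and to 156 to 171 CPM in Granta-519 chidamide libraries and 51.5 to 52.9 CPM in Granta-519 vehicle libraries. FCGR3A and CD163 were at 0 in all groups. Of 10 tested T-cell and natural killer markers 5 rose and 0 fell under the JeKo-1 label, and 6 rose and 1, GATA3, fell in Granta-519. Of 8 tested myeloid markers 5 rose under the JeKo-1 label and 6 in Granta-519, and 0 fell. Of all tested genes, 35.3% rose under the JeKo-1 label and 39.6% in Granta-519. Both sums moved with chidamide, and their part in the values below was not tested. In such bulk samples, fewer cells of a type and less RNA per cell cannot be told apart.

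Without drug, the lines held these factors in different proportions. Libraries labelled JeKo-1 were rich in BCL6 and FOXO1 and nearly without IRF4 and PRDM1, while Granta-519 had high IRF4 with little BCL6 or FOXO1. Of the 10 genes, 6 were higher and 3 lower under the JeKo-1 label than in Granta-519 in vehicle (edgeR quasi-likelihood test, Benjamini-Hochberg adjusted p under 0.05). The same test called 79.8% of all 15087 tested genes, 35.5% higher and 44.3% lower, so the count for the 10 is not far from that of genes at large. With library-size scaling the split of the 10 was 5 higher and 4 lower.

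BCL6 averaged 234 ± 10.5 CPM in JeKo-1 vehicle libraries and 15.8 ± 1.01 CPM in Granta-519 vehicle libraries (SD, n = 3 each), a log2 difference of 3.89 ± 0.06 (standard error, SE; edgeR, adjusted p = 5.34e-50). FOXO1 averaged 94.8 ± 2.40 CPM in JeKo-1 vehicle libraries and 4.25 ± 0.866 CPM in Granta-519 vehicle libraries, a log2 difference of 4.48 ± 0.09 (edgeR, adjusted p = 1.09e-44). IRF4 went the other way, at 9.31 ± 1.11 CPM in JeKo-1 vehicle libraries and 463 ± 11.8 CPM in Granta-519 vehicle libraries, a log2 difference of -5.64 ± 0.06 (edgeR, adjusted p = 3.92e-56). For these 3 genes no library of one line came near the range of the other. PRDM1 was scarce under the JeKo-1 label, at 0.913 ± 0.692 CPM in vehicle libraries, and had 12.5 ± 1.49 CPM in Granta-519 vehicle libraries, a log2 difference of -3.71 ± 0.22 (edgeR, adjusted p = 6.23e-22), or -2.14 on the log2 scale of the length-scaled score plus 0.1. BACH2 was higher under the JeKo-1 label by 1.79 ± 0.11 on the log2 scale (edgeR, adjusted p = 6.40e-21).

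The lineage factors differed less between the lines. PAX5 was lower under the JeKo-1 label, by a log2 difference of -0.34 ± 0.04 (edgeR, adjusted p = 6.30e-12), and TCF3 was higher, by 0.50 ± 0.04 (edgeR, adjusted p = 2.51e-17). EBF1 differed by -0.11 ± 0.07 (edgeR, adjusted p = 0.153) in groups that overlapped, and passed the test at -0.25 with library-size scaling (edgeR, adjusted p = 0.00208). IRF8 was higher under the JeKo-1 label by 0.59 ± 0.04 (edgeR, adjusted p = 2.64e-19). The SPIB difference of 0.13 ± 0.04 (edgeR, adjusted p = 0.00164) turned to -0.0024 with library-size scaling (edgeR, adjusted p = 0.957) and was lost at 0.064 with upper-quartile scaling (adjusted p = 0.133) and at 0.031 with no filter on counts (adjusted p = 0.570).

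**Figure D1:**
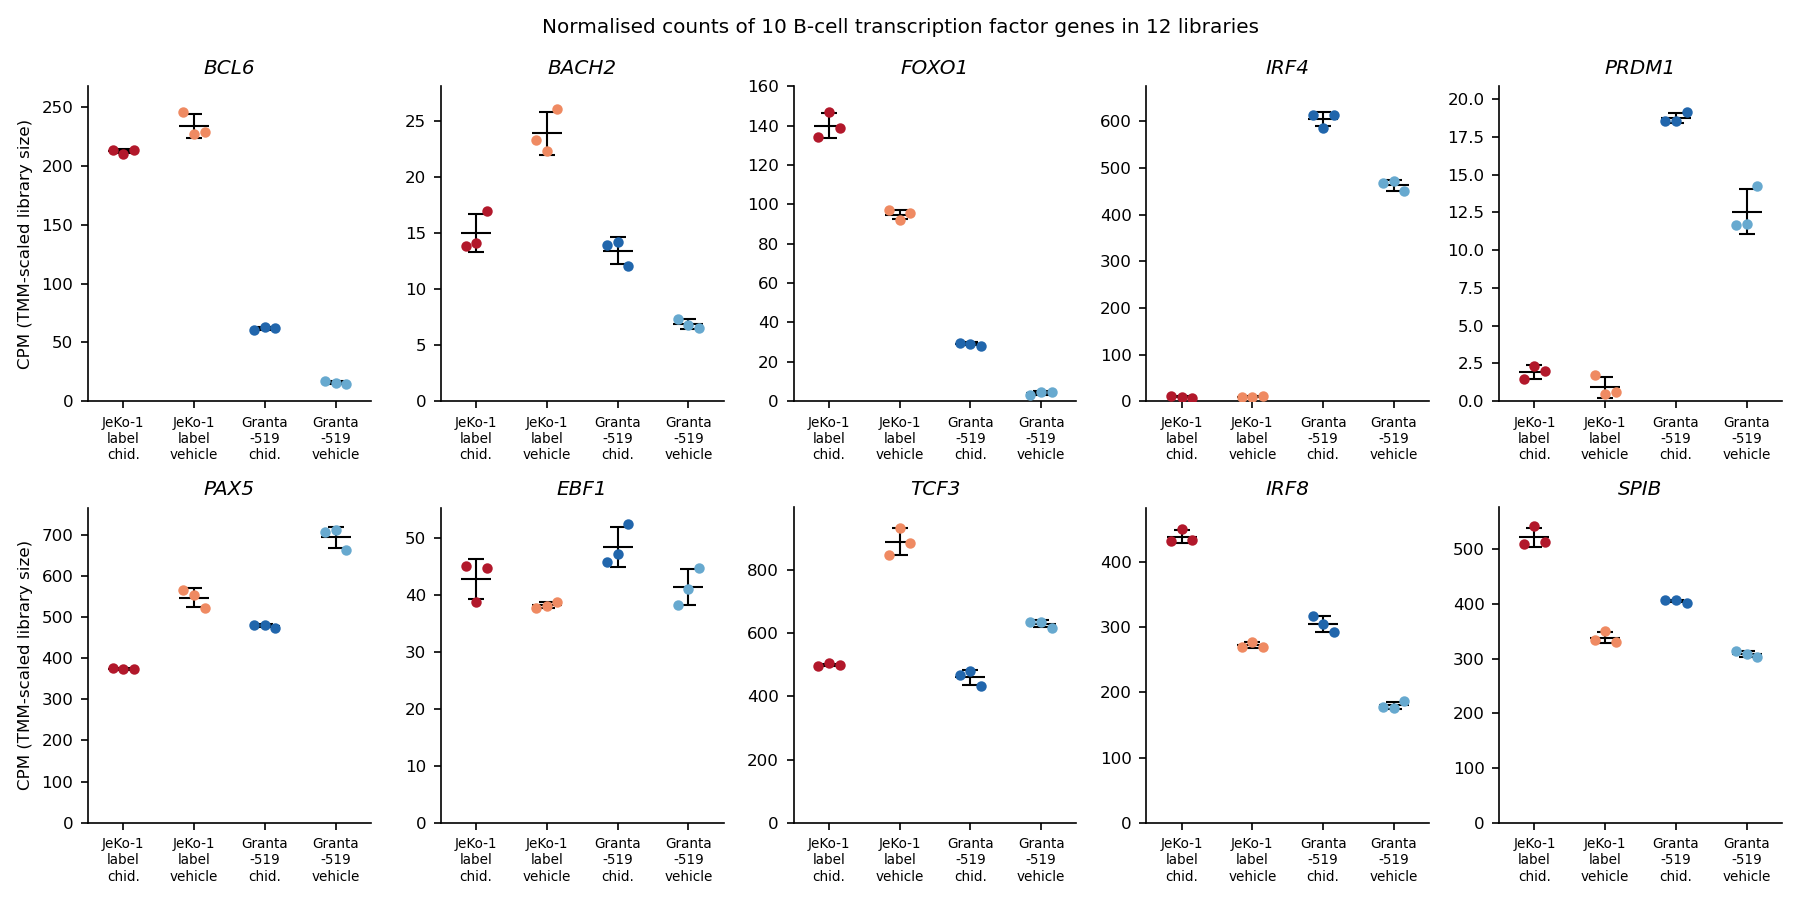
CPM (TMM-scaled) of each gene in each of the 12 libraries on axes that start at 0, with points for libraries and black bars for the group mean ± SD (n = 3). Under the JeKo-1 label IRF4 averages 9.39 CPM with chidamide and 9.31 CPM in vehicle, and in Granta-519 FOXO1 averages 29.1 CPM with chidamide and 4.25 CPM in vehicle.

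Levels of different genes can be set side by side only per length, for which the deposited length-scaled score was used. In JeKo-1 vehicle libraries the order of the mean score was TCF3 (23.9), IRF8 (19.0), SPIB (16.5), PAX5 (11.3), BCL6 (10.9), FOXO1 (3.06), EBF1 (1.28), BACH2 (0.478), IRF4 (0.308) and PRDM1 (0.0314). In Granta-519 vehicle libraries the order was TCF3 (18.7), IRF4 (16.9), SPIB (16.6), PAX5 (15.8), IRF8 (13.9), EBF1 (1.53), BCL6 (0.814), PRDM1 (0.475), BACH2 (0.152) and FOXO1 (0.151). TCF3 led both vehicle groups, and IRF4 moved most places between them. With chidamide IRF8 led in both lines, at a mean score of 33.6 under the JeKo-1 label, ahead of SPIB (27.9) and TCF3 (14.7), and at 23.3 in Granta-519, ahead of IRF4 (21.9), SPIB (21.7) and TCF3 (13.6). Steps between neighbours such as IRF4, SPIB and PAX5 in Granta-519 were not tested.

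Chidamide changed 9 of the 10 genes under the JeKo-1 label, 5 upward and 4 downward (edgeR, adjusted p under 0.05), where 66.4% of all tested genes were called, 35.3% higher and 31.1% lower. In Granta-519 it changed all 10, 8 upward and 2 downward, where 70.9% of all tested genes were called, 39.6% higher and 31.3% lower. The median log2 change of the 10 genes was 0.093 under the JeKo-1 label, beside 0.044 for all tested genes, and 0.49 in Granta-519, beside 0.084. IRF8, PRDM1, FOXO1, EBF1 and SPIB rose in both lines, as did 24.1% of tested genes, and PAX5 and TCF3 fell in both, as did 22.4%. BCL6 and BACH2 fell under the JeKo-1 label and rose in Granta-519. The JeKo-1 fall of BCL6 passed the test in 7 of 14 alternative fits and became a rise of 0.0074 with upper-quartile scaling. Of all tested genes, 5.16% were called in opposite directions in the lines.

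**Figure D2:**
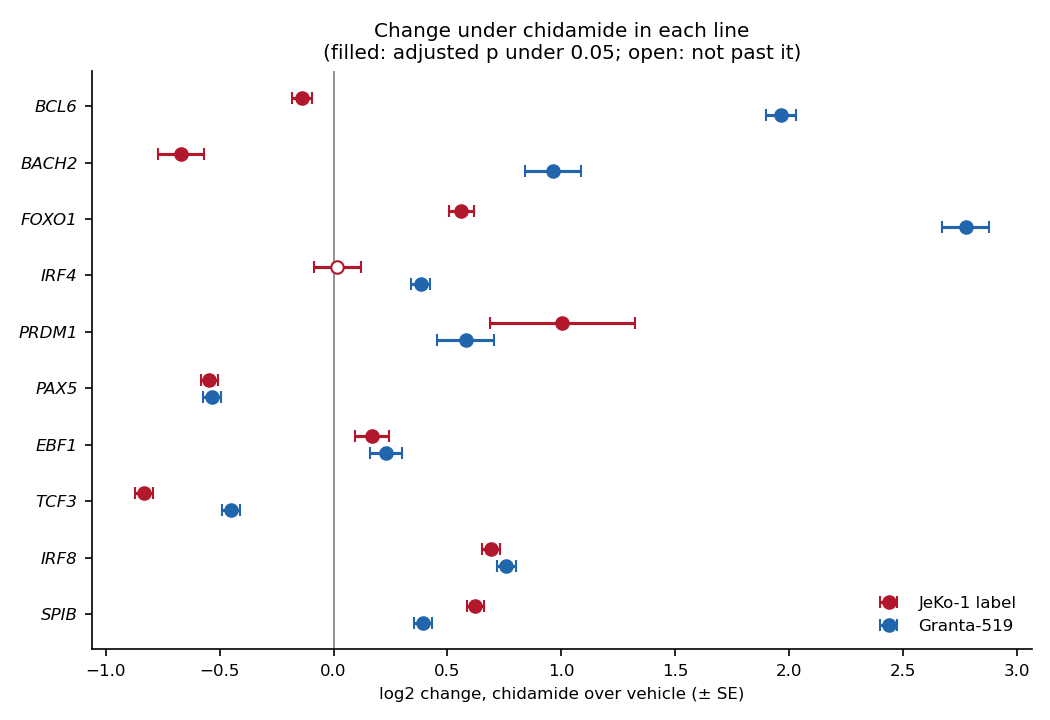
Log2 change under chidamide (chidamide over vehicle, ± SE) of each gene in libraries labelled JeKo-1 (red) and in Granta-519 (blue), with an open symbol for an edgeR adjusted p of 0.05 or more. The BCL6 and BACH2 points lie on opposite sides of 0 (BCL6 under the JeKo-1 label at -0.14, or 0.0074 with upper-quartile scaling), and IRF4 under the JeKo-1 label is the 1 open symbol, at 0.016.

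BCL6, the repressor that defines the germinal-centre programme, had 60.4, 62.9 and 62.1 CPM in the Granta-519 chidamide libraries, against 16.9, 15.7 and 14.9 CPM in vehicle. Every treated library was above every vehicle library, and the log2 change was 1.97 ± 0.07 (edgeR, adjusted p = 2.54e-32). Under the JeKo-1 label BCL6 had 214, 211 and 214 CPM with chidamide, against 246, 227 and 229 CPM in vehicle. These groups did not overlap either, but the fall was small, at a log2 change of -0.14 ± 0.05 (edgeR, adjusted p = 0.00601). It was lost without JeKo-1 chidamide replicate 2 (edgeR, adjusted p = 0.0516) or JeKo-1 vehicle replicate 1 (edgeR, adjusted p = 0.104), and with library-size scaling (-0.0074; adjusted p = 0.929) or no filter on counts (-0.088; adjusted p = 0.129). With upper-quartile scaling it became 0.0074 (edgeR, adjusted p = 0.930). On the log2 scale of the score plus 0.1 it was -0.0036 and did not pass, with mean scores of 10.88 with chidamide and 10.91 in vehicle. The fall passed the test in 7 of 14 alternative fits. After its rise, BCL6 in treated Granta-519 was still below its level in every library labelled JeKo-1.

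BACH2, which partners small MAF proteins and is known to repress PRDM1, moved in opposite directions in the lines. Under the JeKo-1 label it had 13.9, 14.2 and 17.0 CPM with chidamide, against 23.4, 22.3 and 26.1 CPM in vehicle. Granta-519 libraries had 13.97, 14.3 and 12.1 CPM with chidamide, against 7.36, 6.77 and 6.53 CPM in vehicle. The groups did not overlap within either line, and the treated groups of the lines overlapped each other. The log2 change was -0.67 ± 0.10 under the JeKo-1 label (edgeR, adjusted p = 6.13e-08) and 0.96 ± 0.12 in Granta-519 (edgeR, adjusted p = 8.16e-10). With drug, the difference between the lines was 0.16 ± 0.11 on the log2 scale and did not pass the test (edgeR, adjusted p = 0.165).

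FOXO1, the forkhead factor that AKT holds out of the nucleus, rose in both lines. In Granta-519 it had 29.8, 29.3 and 28.3 CPM with chidamide, against 3.26, 4.62 and 4.87 CPM in vehicle, resting on 50 to 73 counts in each vehicle library. Its log2 change there was 2.78 ± 0.10, or 6.85-fold (edgeR, adjusted p = 2.85e-30), and 3.98% of all tested genes had a higher one. On the log2 scale of the score plus 0.1 it was 2.18, still past the threshold. FOXO1 under the JeKo-1 label had 134, 147 and 139 CPM with chidamide, against 96.9, 92.2 and 95.4 CPM in vehicle, a log2 change of 0.56 ± 0.06 (edgeR, adjusted p = 4.10e-13). Treated Granta-519 libraries stayed below every library labelled JeKo-1.

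IRF4, an interferon regulatory factor needed for the plasma-cell exit, rose in Granta-519. It had 613, 586 and 613 CPM in Granta-519 chidamide libraries, against 468, 472 and 449.6 CPM in vehicle, a log2 change of 0.38 ± 0.04 (edgeR, adjusted p = 7.77e-12). Libraries labelled JeKo-1 had 10.4, 9.89 and 7.89 CPM with chidamide, against 9.57, 8.10 and 10.3 CPM in vehicle. Those groups overlapped, and the log2 change was 0.016 ± 0.10 (edgeR, adjusted p = 0.931).

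PRDM1, the repressor that ends the B-cell programme in plasma cells, was the lowest of the 10 genes per length in both groups labelled JeKo-1. There it had 1.48, 2.35 and 1.97 CPM with chidamide, against 1.71, 0.450 and 0.580 CPM in vehicle, which is 25, 33 and 31 counts against 25, 6 and 7 counts. One vehicle library lay within the range of the treated ones. The log2 change of 1.00 ± 0.32 (edgeR, adjusted p = 0.00463) fell short of the threshold without JeKo-1 vehicle replicate 2 (0.68; edgeR, adjusted p = 0.0543) and was 1.89 without JeKo-1 vehicle replicate 1. On the log2 scale of the score plus 0.1 it was 0.41. In Granta-519, PRDM1 had 18.6, 18.6 and 19.1 CPM with chidamide, against 11.7, 11.7 and 14.3 CPM in vehicle. These groups did not overlap, and the log2 change was 0.58 ± 0.13 (edgeR, adjusted p = 5.36e-05). That call was lost on the score plus 0.01, at 0.57 (limma, adjusted p = 0.255).

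PAX5, the factor that guards B-cell commitment, fell in both lines. It had 377, 374 and 373 CPM in JeKo-1 chidamide libraries, against 565, 554 and 522 CPM in vehicle. Granta-519 libraries had 482, 482 and 474 CPM with chidamide, against 706, 711 and 664 CPM in vehicle. All treated libraries of a line lay below all its vehicle libraries. The log2 change was -0.55 ± 0.04 under the JeKo-1 label (edgeR, adjusted p = 1.49e-18) and -0.53 ± 0.04 in Granta-519 (edgeR, adjusted p = 1.98e-18).

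TCF3, which encodes the E proteins of early B-cell development, fell further under the JeKo-1 label than in Granta-519. It had 496, 505 and 499 CPM in JeKo-1 chidamide libraries, against 849, 935 and 888 CPM in vehicle. TCF3 in Granta-519 had 467, 481 and 433 CPM with chidamide, against 637, 636 and 617 CPM in vehicle. The groups of each line were apart, and the treated groups came close to each other. The log2 change was -0.83 ± 0.04 under the JeKo-1 label (edgeR, adjusted p = 7.77e-26), where 5.79% of tested genes had a lower one, and -0.45 ± 0.04 in Granta-519 (edgeR, adjusted p = 4.30e-15).

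EBF1, a pioneer factor of B-lineage chromatin, moved little. It had 45.0, 38.8 and 44.6 CPM in JeKo-1 chidamide libraries, against 37.7, 38.0 and 38.8 CPM in vehicle, so the lowest treated library all but met the highest vehicle library. In Granta-519 it had 45.8, 47.0 and 52.4 CPM with chidamide, against 38.2, 41.0 and 44.6 CPM in vehicle. The log2 change was 0.17 ± 0.07 under the JeKo-1 label (edgeR, adjusted p = 0.0393) and 0.23 ± 0.07 in Granta-519 (edgeR, adjusted p = 0.00372). The JeKo-1 call was lost without JeKo-1 chidamide replicate 1 (edgeR, adjusted p = 0.137), chidamide replicate 3 (adjusted p = 0.112), vehicle replicate 1 (adjusted p = 0.0681) or vehicle replicate 3 (adjusted p = 0.0557). With library-size scaling it was 0.30 (adjusted p = 0.000364). The Granta-519 call was lost with no filter on counts, at 0.12 (edgeR, adjusted p = 0.145), and on the score plus 0.1, at 0.21 (limma, adjusted p = 0.0560).

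IRF8, an interferon regulatory factor of the germinal centre that pairs with ETS factors, rose in both lines. It had 433, 451 and 434 CPM in JeKo-1 chidamide libraries, against 269, 277 and 270.1 CPM in vehicle. IRF8 in Granta-519 had 317, 305 and 293 CPM with chidamide, against 178, 176 and 187 CPM in vehicle. No treated library was as low as any vehicle library of its line. The log2 change was 0.69 ± 0.04 under the JeKo-1 label (edgeR, adjusted p = 5.32e-22) and 0.76 ± 0.04 in Granta-519 (edgeR, adjusted p = 2.94e-23).

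SPIB, an ETS factor of B cells and a partner of IRF proteins, also rose in both. It had 509.5, 542 and 512 CPM in JeKo-1 chidamide libraries, against 334, 351 and 330.4 CPM in vehicle. In Granta-519 it had 406, 407 and 402 CPM with chidamide, against 314, 308 and 302 CPM in vehicle. The groups were apart in each line, with a log2 change of 0.62 ± 0.04 under the JeKo-1 label (edgeR, adjusted p = 8.49e-21) and 0.39 ± 0.04 in Granta-519 (edgeR, adjusted p = 3.11e-13). SPI1, the closely related ETS gene outside the 10, fell in both lines, with a log2 change of -0.82 ± 0.07 under the JeKo-1 label (edgeR, adjusted p = 2.33e-16) and -0.78 ± 0.08 in Granta-519 (edgeR, adjusted p = 5.47e-13).

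Whether the drug acted differently in the lines was tested as the difference between its log2 changes, JeKo-1 label minus Granta-519. Of the 10 genes, 6 passed (edgeR, adjusted p under 0.05), beside 39.5% of all tested genes. One difference was positive and 5 were negative, beside 20.0% and 19.5% of tested genes. The differences were -2.21 ± 0.12 for FOXO1 (edgeR, adjusted p = 4.73e-22), -2.10 ± 0.08 for BCL6 (edgeR, adjusted p = 2.36e-28) and -1.63 ± 0.16 for BACH2 (edgeR, adjusted p = 1.34e-12). Smaller ones were found for TCF3, at -0.38 ± 0.06 (edgeR, adjusted p = 9.63e-08), IRF4, at -0.37 ± 0.11 (edgeR, adjusted p = 0.00673), and SPIB, at 0.23 ± 0.05 (edgeR, adjusted p = 0.000549). The IRF4 difference was lost without JeKo-1 chidamide replicate 3 (edgeR, adjusted p = 0.0779) or JeKo-1 vehicle replicate 3 (adjusted p = 0.0526), with library-size scaling (-0.23; adjusted p = 0.0922) and with no filter on counts (-0.21; adjusted p = 0.164). Library-size scaling gave -0.24 for TCF3 and 0.37 for SPIB, and the score plus 0.1 gave -1.08 for BACH2 and -1.50 for FOXO1, with all these still past the threshold. PAX5 (-0.012 ± 0.054), IRF8 (-0.068 ± 0.057), PRDM1 (0.42 ± 0.34) and EBF1 (-0.061 ± 0.10) did not pass, which does not show that they responded alike. The PRDM1 difference passed at 1.30 once JeKo-1 vehicle replicate 1 was left out (edgeR, adjusted p = 0.0113), and the PAX5 difference passed at 0.15 with no filter on counts (edgeR, adjusted p = 0.0396).

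For BCL6, BACH2, FOXO1 and TCF3 the distance between the lines was smaller with chidamide than in vehicle. The log2 difference between lines was 1.78 with chidamide and 3.89 in vehicle for BCL6, and 2.26 with chidamide and 4.48 in vehicle for FOXO1. IRF4 and SPIB were farther apart with the drug, IRF4 at -6.00 with chidamide and -5.64 in vehicle, and SPIB at 0.36 with chidamide and 0.13 in vehicle. These distances come from the same libraries as the test of the difference and restate it.

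**Figure D3:**
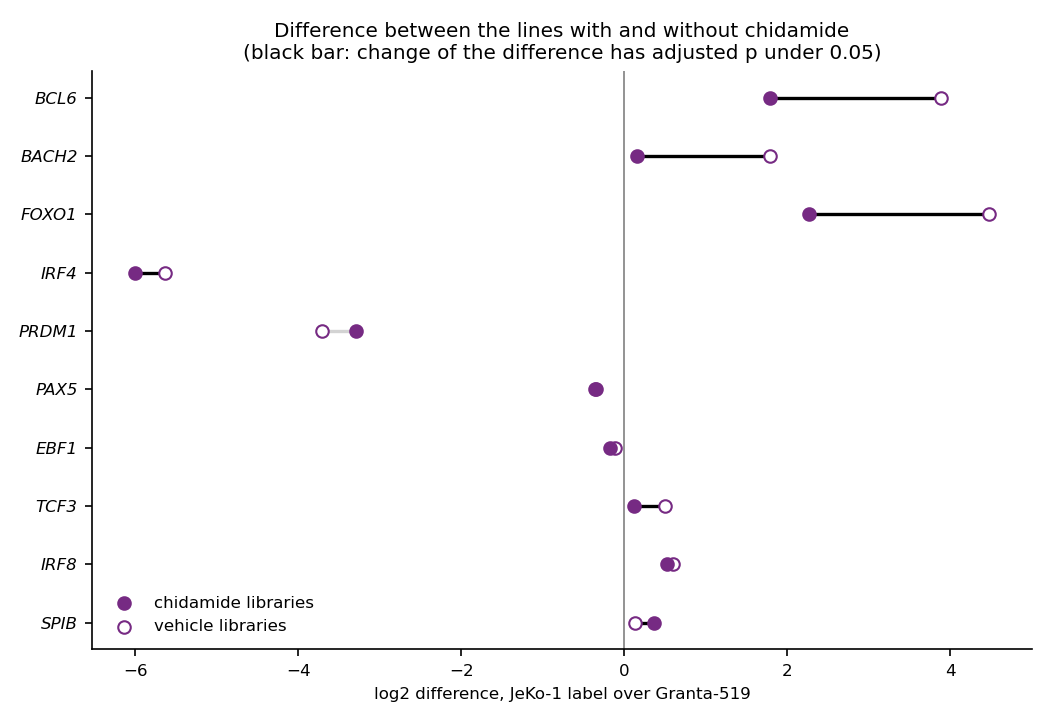
Log2 difference between the lines (JeKo-1 label over Granta-519) for each gene in chidamide libraries (filled) and in vehicle libraries (open), joined by a black bar where the drug effect differed between lines at an edgeR adjusted p under 0.05 and by a grey bar elsewhere. FOXO1 lies at 2.26 with chidamide and 4.48 in vehicle, and BACH2 at 0.16 with chidamide and 1.79 in vehicle.

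Ordered by mean CPM, the 4 groups differed between every neighbouring pair (edgeR, adjusted p under 0.05) for BCL6, PAX5, IRF8, PRDM1, FOXO1, TCF3 and SPIB. Of these steps, that of BCL6 between the JeKo-1 groups passed in 7 of 14 alternative fits. That of SPIB between the vehicle groups passed in 9 of 14, and the JeKo-1 groups of PRDM1 overlapped. On the length-scaled score, PAX5 had 10.8 to 11.7 in JeKo-1 vehicle libraries and 10.8 to 10.9 in Granta-519 chidamide libraries, which overlap. Steps across the lines, other than between the vehicle groups, were not tried in the alternatives. The share of all tested genes that differed at every step was not computed. For IRF4 the groups labelled JeKo-1 did not differ from each other past the test, and for BACH2 the treated groups did not. Of all tested genes, 81.7% differed between the treated groups (36.4% higher and 45.3% lower under the JeKo-1 label), 81.7% between JeKo-1 chidamide and Granta-519 vehicle (36.2% and 45.4%), and 85.8% between JeKo-1 vehicle and Granta-519 chidamide (38.0% and 47.9%). EBF1 varied little, at 42.8 ± 3.499 CPM in JeKo-1 chidamide libraries, 38.2 ± 0.564 CPM in JeKo-1 vehicle libraries, 48.4 ± 3.53 CPM in Granta-519 chidamide libraries and 41.3 ± 3.18 CPM in Granta-519 vehicle libraries (SD, n = 3 each). Its JeKo-1 chidamide and Granta-519 vehicle groups did not differ past the test (edgeR, adjusted p = 0.475), nor did its vehicle groups (adjusted p = 0.153).

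Pairs of opposed or related factors were set against each other within each library as ratios of the length-scaled score. IRF8 over IRF4 had a median of 96.1 (87.6 to 116) in JeKo-1 chidamide libraries and 59.3 (55.4 to 72.1) in JeKo-1 vehicle libraries. In Granta-519 it was 1.09 (1.01 to 1.096) with chidamide and 0.801 (0.788 to 0.875) in vehicle, so IRF4 exceeded IRF8 per length in each Granta-519 vehicle library and in no Granta-519 chidamide library. BCL6 over PRDM1 was 4.41 (4.41 to 4.60) in Granta-519 chidamide libraries and 1.82 (1.42 to 1.96) in Granta-519 vehicle libraries. Under the JeKo-1 label it was 147 (122 to 196) with chidamide and 536 (195 to 685) in vehicle, ranges that meet and rest on few PRDM1 counts. No test was made on these ratios.

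**Figure D4:**
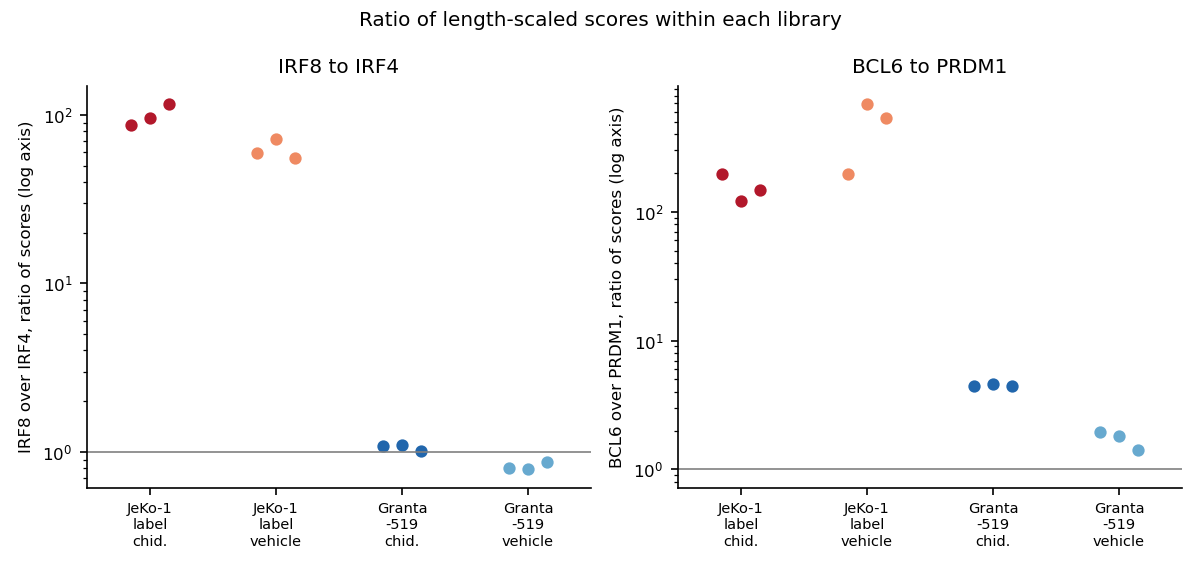
Ratio of length-scaled scores within each library on log axes, IRF8 over IRF4 at left and BCL6 over PRDM1 at right, 1 point a library, with a grey line at a ratio of 1. The Granta-519 points for IRF8 over IRF4 lie at 1.01 to 1.096 with chidamide and at 0.788 to 0.875 in vehicle.

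Known targets and partners of the 10 factors were read as lists from the same fit. Whether the level of a factor bears on the genes of its list was not tested. Medians of these lists leave out genes with 3 or fewer counts in both groups, and set a gene at 0 in one group to the bound that 3 counts over that group allow. The counts stand beside 35.3% of all tested genes higher and 31.1% lower under the JeKo-1 label, and 39.6% and 31.3% in Granta-519. All 18 genes known to be repressed by BCL6 changed under the JeKo-1 label, 14 upward and 4 downward, with a median log2 change of 0.70. In Granta-519, 9 rose and 6 fell, with a median of 0.12. The drug effect differed between lines past the test in 14 of the 18, being more positive under the JeKo-1 label in 13, beside 39.5% of all tested genes called and 20.0% more positive. CXCL10, an interferon-induced chemokine, had 93.3 ± 6.89 CPM in JeKo-1 chidamide libraries and 4.11 ± 0.643 CPM in JeKo-1 vehicle libraries, and 54.7 ± 2.44 CPM in Granta-519 chidamide libraries and 24.4 ± 3.09 CPM in Granta-519 vehicle libraries. CCND2, a D-type cyclin, had 8 counts against 0 under the JeKo-1 label and rose in Granta-519 by a log2 change of 1.82 ± 0.14 (edgeR, adjusted p = 2.98e-17).

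For genes known to be repressed by PAX5, whether the level of PAX5 bears on them was not tested. Of 9 such genes, 6 rose and 2 fell under the JeKo-1 label, and 8 rose and 0 fell in Granta-519. The median was 2.16 under the JeKo-1 label over the 8 genes with enough counts and 1.69 in Granta-519. Over all 9 genes as fitted the JeKo-1 median was 1.33 and ran from 0.38 to 1.55 over the alternatives, in which 3 to 6 of them rose. CSF1R, a myeloid receptor gene silenced by PAX5 in B cells, had 8.82 ± 0.614 CPM in JeKo-1 chidamide libraries and 0.176 ± 0.0903 CPM in JeKo-1 vehicle libraries, and 19.7 ± 0.565 CPM in Granta-519 chidamide libraries and 0.974 ± 0.188 CPM in Granta-519 vehicle libraries. It is also 1 of the myeloid markers whose sum moved with chidamide. CD28, a T-cell costimulatory receptor, had 31 counts against 0 under the JeKo-1 label and rose in Granta-519 by a log2 change of 1.83 ± 0.06 (edgeR, adjusted p = 4.14e-31). CCR2, a chemokine receptor of monocytes, was at 0 in both groups labelled JeKo-1 and had 792 counts in Granta-519 chidamide libraries against 10 in vehicle. NOTCH1 fell under the JeKo-1 label, by a log2 change of -0.79 ± 0.06 (edgeR, adjusted p = 3.16e-16).

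Genes known to be activated by PAX5 or EBF1 were split under the JeKo-1 label, with 7 higher and 6 lower of 17 tested and a median of 0.36, while 12 rose and 4 fell in Granta-519, with a median of 0.57. CR2, a complement receptor, rose by a log2 change of 1.66 ± 0.04 under the JeKo-1 label (edgeR, adjusted p = 1.41e-36) and 1.79 ± 0.05 in Granta-519 (edgeR, adjusted p = 3.82e-37). BLNK, an adaptor of the B-cell receptor, fell by a log2 change of -1.08 ± 0.06 under the JeKo-1 label (edgeR, adjusted p = 1.80e-22) and -0.73 ± 0.05 in Granta-519 (edgeR, adjusted p = 6.83e-19). CD79A, a receptor subunit, changed by -0.59 ± 0.04 under the JeKo-1 label (edgeR, adjusted p = 1.50e-17) and -0.28 ± 0.04 in Granta-519 (edgeR, adjusted p = 9.40e-08). Its partner CD79B changed by -0.42 ± 0.04 under the JeKo-1 label (edgeR, adjusted p = 2.50e-12) and -0.35 ± 0.05 in Granta-519 (edgeR, adjusted p = 8.40e-09).

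Of 13 genes known to be activated by FOXO1, 7 rose and 1 fell under the JeKo-1 label, with a median of 0.82, and 8 rose and 2 fell in Granta-519, with a median of 1.105. The drug effect was more positive in Granta-519 for 6 of them, beside 19.5% of all tested genes. It was more positive under the JeKo-1 label for 2, beside 20.0%. KLF2 and RAG2 had 0 counts in both groups labelled JeKo-1, and S1PR1 had 2 with chidamide and 0 in vehicle. Their difference between lines could not be measured. SESN3, a sestrin gene, rose by a log2 change of 1.64 ± 0.07 under the JeKo-1 label (edgeR, adjusted p = 5.88e-27) and 3.55 ± 0.16 in Granta-519 (edgeR, adjusted p = 1.22e-26). IL7R, the receptor chain for interleukin-7, had 128 counts against 6 in Granta-519, and under the JeKo-1 label its log2 change was 0.023 ± 0.080 (edgeR, adjusted p = 0.842). RAG1, which cuts antigen receptor genes, had 38 counts against 3 under the JeKo-1 label and 81 against 9 in Granta-519. BLNK fell in both lines and is shared with the list of PAX5 and EBF1.

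**Figure D5:**
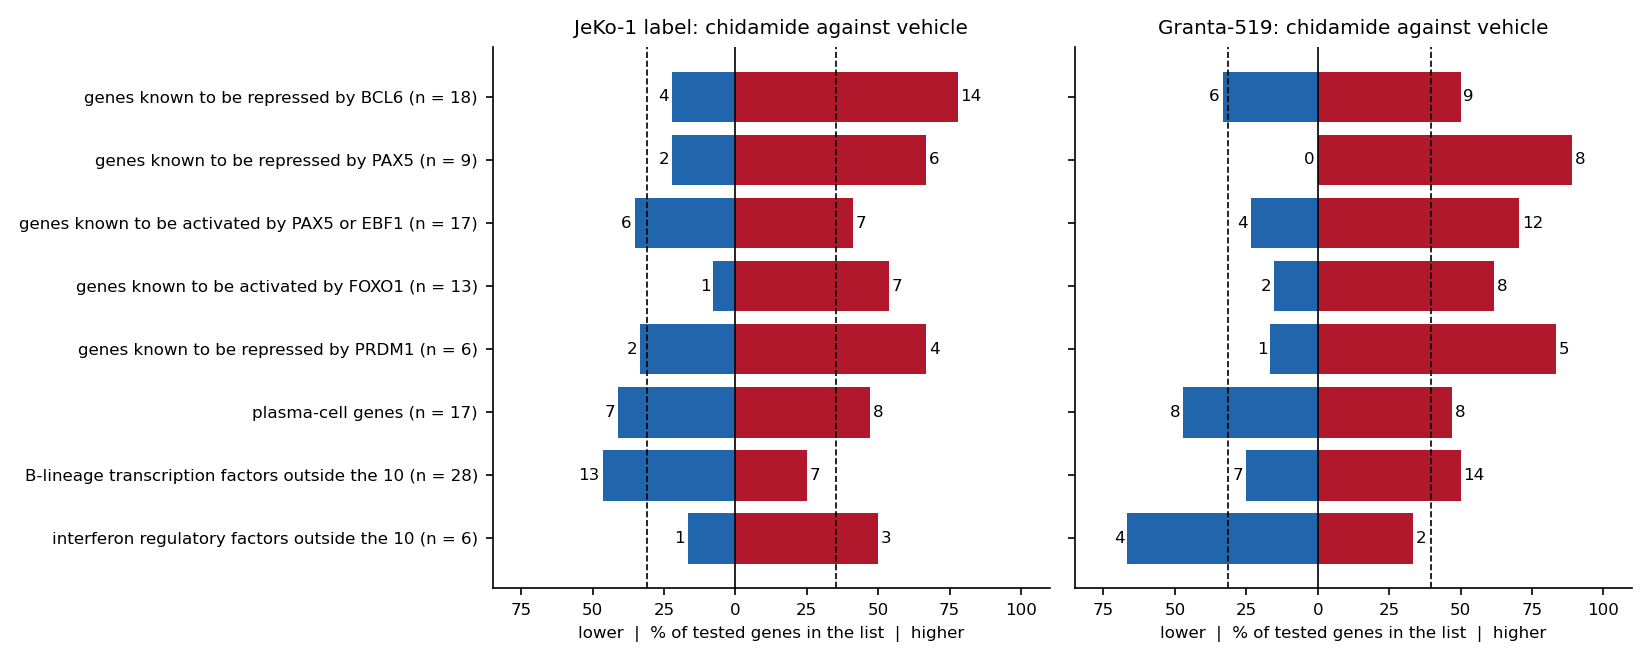
Share of tested genes in each list that rose (right, red) or fell (left, blue) under chidamide at an edgeR adjusted p under 0.05, in libraries labelled JeKo-1 (left panel) and in Granta-519 (right panel), with counts at the bar ends and dashed lines at the shares of all tested genes. For genes known to be repressed by BCL6 the bars stand at 14 up and 4 down under the JeKo-1 label and at 9 up and 6 down in Granta-519.

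Plasma-cell genes moved both ways, with 8 higher and 7 lower of 17 under the JeKo-1 label and 8 each way in Granta-519, with medians of 0.070 under the JeKo-1 label and -0.042 in Granta-519 that turned sign under other settings. SLAMF7, a surface receptor of plasma cells, rose by a log2 change of 1.95 ± 0.08 under the JeKo-1 label (edgeR, adjusted p = 8.56e-28) and 1.07 ± 0.08 in Granta-519 (edgeR, adjusted p = 2.61e-18). CD27, a receptor of memory B cells and plasma cells, fell by a log2 change of -1.15 ± 0.08 under the JeKo-1 label (edgeR, adjusted p = 8.05e-19) and -0.75 ± 0.10 in Granta-519 (edgeR, adjusted p = 7.06e-09). SDC1, which encodes the plasma-cell marker syndecan, had 0 counts against 1 under the JeKo-1 label and fell in Granta-519 by a log2 change of -0.74 ± 0.07 (edgeR, adjusted p = 2.87e-14). Of 6 genes known to be repressed by PRDM1, 4 rose and 2 fell under the JeKo-1 label, and 5 rose and 1 fell in Granta-519, with medians of 0.30 and 0.65. CIITA, the master regulator of MHC class II genes, rose by a log2 change of 0.40 ± 0.04 under the JeKo-1 label (edgeR, adjusted p = 2.29e-13) and 0.75 ± 0.04 in Granta-519 (edgeR, adjusted p = 7.17e-24).

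Other transcription factors of the B lineage, 28 in all, moved both ways in each line. Under the JeKo-1 label 7 rose and 13 fell, with a median of -0.20, and in Granta-519 14 rose and 7 fell, with a median of 0.10 that reached -0.0055 under another setting. The drug effect differed between lines past the test in 13, being lower under the JeKo-1 label in 12, beside 39.5% of all tested genes called and 19.5% lower. Over the alternatives on counts, 9 to 14 were lower and 1 to 5 higher. FOXP1, a forkhead factor of mature B cells, rose in both, by a log2 change of 0.57 ± 0.08 under the JeKo-1 label (edgeR, adjusted p = 2.43e-09) and 1.92 ± 0.14 in Granta-519 (edgeR, adjusted p = 9.90e-18). AFF3 fell under the JeKo-1 label (-0.36 ± 0.06; edgeR, adjusted p = 9.11e-08) and rose in Granta-519 (0.95 ± 0.13; edgeR, adjusted p = 4.10e-09). IKZF3, the lymphoid factor Aiolos, changed by -0.67 ± 0.04 under the JeKo-1 label (edgeR, adjusted p = 2.43e-20) and by -0.0095 ± 0.042 in Granta-519 (edgeR, adjusted p = 0.847).

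Close relatives of the 10 factors were read from smaller lists. All 3 FOXO genes outside the 10 rose in both lines, although FOXO6 rested on 16 counts against 1 under the JeKo-1 label, where 2 or 3 were called over the alternatives. FOXO3 rose by a log2 change of 1.33 ± 0.07 under the JeKo-1 label (edgeR, adjusted p = 3.30e-23) and 0.94 ± 0.07 in Granta-519 (edgeR, adjusted p = 7.38e-17). Of the 6 tested IRF genes outside the 10, 3 rose and 1 fell under the JeKo-1 label, and 2 rose and 4 fell in Granta-519. IRF3 fell while IRF8 rose, by a log2 change of -0.90 ± 0.07 under the JeKo-1 label (edgeR, adjusted p = 5.42e-18) and -0.58 ± 0.07 in Granta-519 (edgeR, adjusted p = 2.17e-10). Of 6 tested genes listed around E proteins such as TCF3, namely inhibitors, related E proteins and CCND3, 4 rose in each line. The 1 that fell in each line was CCND3, a D-type cyclin gene. The inhibitor ID2 rose by 1.25 ± 0.12 under the JeKo-1 label (edgeR, adjusted p = 2.27e-13) and 0.33 ± 0.07 in Granta-519 (edgeR, adjusted p = 4.30e-05).

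Among 6 genes listed around BACH factors (BACH1, the small MAF genes MAFF, MAFG and MAFK, NFE2L2 and HMOX1), 1 rose and 2 fell under the JeKo-1 label. In Granta-519, 3 rose and 2 fell, with HMOX1 among the rises and NFE2L2 among the falls. BACH1 rose in both lines, by a log2 change of 0.73 ± 0.08 under the JeKo-1 label (edgeR, adjusted p = 9.21e-12) and 0.83 ± 0.08 in Granta-519 (edgeR, adjusted p = 1.96e-14). HMOX1, the haem oxygenase gene that BACH1 is known to repress, had 1401 counts against 327 in Granta-519, a log2 change of 2.18 ± 0.11 (edgeR, adjusted p = 4.34e-24), and 6 against 3 under the JeKo-1 label. Of 10 tested corepressors and partners of BCL6, 3 rose and 2 fell under the JeKo-1 label, and 3 rose and 3 fell in Granta-519. TBL1XR1, a subunit of a nuclear corepressor complex, rose by 0.76 ± 0.05 under the JeKo-1 label (edgeR, adjusted p = 2.55e-20) and 1.30 ± 0.05 in Granta-519 (edgeR, adjusted p = 2.78e-29).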

How the data were processed

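Polyadenylated RNA of 12 libraries was sequenced in the 4 groups that the labels' titles give. The authors deposited whole-number counts per gene, and STAR and hg19 are named in the submitters' processing notes. No source used here gives the counter or its use of strand. A second deposited table holds a length-scaled score, which is the count divided by a constant of each gene and by the library total. Over 9679 genes this constant followed the length of the longest GENCODE v29 transcript (Spearman's rho 0.751 across genes, which are not independent replicates). The score served to compare levels between genes, and 6 of its columns, which hold no values, were not used.

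Counts were fitted with edgeR 4.0.16 in R 4.3.3 (filterByExpr by group, TMM scaling, robust quasi-likelihood fit of 4 group means). This left 15087 of 26364 genes, and p-values were adjusted over all of them (Benjamini-Hochberg, threshold 0.05). SEs come from the F statistic, and the fit was tested on simulated data. Scaling by library size or upper quartile, DESeq2 1.42.0, no count filter, own libraries only, a replicate block, each library left out, and limma 3.58.1 on log2 of the score plus 0.1 (or 0.01, chosen after seeing the data) were tried.

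The 10 genes, the 16 gene lists and the motifs were chosen with earlier results of these data known. Named genes are the 10, up to 2 of the largest called rises and falls of each list in each line (in lists of transcription factors also for the difference between lines and the lines in vehicle), defining markers, and the 3 genes whose log2 CPM followed each of the 10 most closely; the text gives some of these, and some results are not reported here.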

Additional observations from a re-analysis of the deposited data

Results flagged for a closer look

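The drug effect on 6 of the 10 genes differed between the lines in the test of the difference itself, given as JeKo-1 label minus Granta-519 on the log2 scale. The difference was -2.10 for BCL6, -1.63 for BACH2, -2.21 for FOXO1, -0.38 for TCF3, -0.37 for IRF4 and 0.23 for SPIB. BCL6 and BACH2 fell under the JeKo-1 label and rose in Granta-519. The JeKo-1 fall of BCL6 passed the test in 7 of 14 alternatives and was 0.0074 with upper-quartile scaling. FOXO1 rose in both lines, TCF3 fell in both and SPIB rose in both, with unequal size. IRF4 rose in Granta-519, and its difference was lost in 6 of 19 alternatives: without JeKo-1 chidamide replicate 3 or JeKo-1 vehicle replicate 3, with library-size scaling, with no count filter, and on the score with either pseudocount.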

How the results depend on the processing

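Between 7 and 9 of the 10 genes were called under the JeKo-1 label in the alternatives, 8 to 10 in Granta-519, 5 to 7 for the difference between lines and 9 between the lines in vehicle. Of 610 alternatives for 40 single values, 557 kept direction and side of the threshold, 23 lost the call, 6 gained one and 24 turned direction. Those that turned had not passed the test, except BCL6 under the JeKo-1 label and SPIB between the lines in vehicle. For BCL6 under the JeKo-1 label, upper-quartile scaling gave 0.0074. IRF4 under the JeKo-1 label ran from -0.062 to 0.14 over the libraries left out. For the difference between lines, PAX5 turned to 0.12 with library-size scaling, 0.038 with upper-quartile scaling, 0.15 with no count filter and 0.13 on the score with either pseudocount, and ran from -0.042 to 0.021 over left-out libraries. IRF8 turned to 0.068 with library-size scaling, 0.091 with no filter and 0.076 on the score, PRDM1 to -0.085 on the score with a pseudocount of 0.1, and EBF1 to 0.075 with library-size scaling, 0.099 with no filter, 0.069 on the score plus 0.1 and 0.075 on the score plus 0.01. EBF1 ran from -0.117 to 0.0016 over left-out libraries. SPIB between the lines in vehicle turned to -0.0024 with library-size scaling and -0.0081 on the score. The cause was not tested.

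TMM factors were 0.928 to 0.938 in JeKo-1 vehicle libraries and 1.016 to 1.029 in the rest, and library-size scaling moved the median log2 change of all tested genes to 0.17 under the JeKo-1 label (0.044 with TMM), 0.16 for the difference between lines (0.023) and -0.27 between the lines in vehicle (-0.13), so changes there are relative to that shift. Same-numbered libraries correlated at -0.037 to 0.042 under the JeKo-1 label and 0.029 to 0.175 in Granta-519, and the replicate block called 9, 10, 6 and 9 genes, as without it. Leaving out a library assumes that the remaining 2 vary like the other groups. Depth limits PRDM1 under the JeKo-1 label most.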

Other observations

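For 9 of the 10 genes, the tested gene with the most similar log2 CPM over the 12 libraries is given by Pearson's r, as a description with no p. The 12 libraries are 4 groups of replicates that share depth scaling and fall into separate clusters by line, so high values follow from a shared order of the groups. IRF8 was closest to TRAF1 (r = 0.996), a TNF receptor adaptor, and HLA-DOA (0.996), a modulator of MHC class II loading. PAX5 was closest to KMT2D (0.993), a histone methyltransferase gene, TCF3 to DDX51 (0.997) and FOXO1 to CEND1 (0.998). IRF4 was closest to GGT7 (0.999), PRDM1 to VASH2 (0.996), BACH2 to FOXRED2 (0.990) and SPIB to MYBPC1 (0.989). EBF1, the flattest of the 10, had the lowest best match, XPR1 (0.909).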
